A study of Mus musculus with 12 samples.

Results

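The Schwann cell and myelin genes described here are Pmp22, Mbp, Prx, Mag, Cnp, Sox10 and S100b, 7 of the 43432 gene identifiers in the count table. They were chosen by name, with no measured value in the rule, though earlier results of these data were known. All 7 had counts in every library and passed the filter on low counts. RNA from gastrocnemius, a calf muscle, of male mice was sequenced in 4 groups of 3 libraries each. Exercised MKO mice lacked cellular Feimin (cFeimin) and were sampled after a run of 90 min at a steady 60% of their top speed. Exercised WT mice were fl/fl littermates with the same run. Sedentary MKO and sedentary WT mice had the same genotypes and did not run. Replicates 1, 2 and 4 of exercised MKO, 3, 4 and 5 of exercised WT, 1, 2 and 3 of sedentary MKO and 1, 3 and 4 of sedentary WT were analysed, 12 of the 18 libraries that the protocol names. The Cre driver behind MKO, the ages and the time from the run to sampling are not stated by the labels. Levels are in CPM, read counts scaled to a common library size, and log2 fold changes are from edgeR and given as value ± standard error.

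Schwann cells are the glia of peripheral nerve. Those that wrap large axons build a compact sheath of stacked membrane, the myelin, whose lipids and proteins make it a product of abundant and coordinated gene expression, while others ensheath thin axons without myelin. Sox10 is the lineage's main transcription factor: it acts with Egr2 to turn on the genes of myelin proteins. A muscle such as gastrocnemius holds nerve branches and motor axon endings among its fibres, so whole muscle RNA carries a small contribution from these glia. In RNA from whole tissue, fewer cells of a type and less RNA per cell cannot be told apart.

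The libraries held 14324010 to 14563501 counts, and a single count was worth 0.0605 to 0.0741 CPM. B230219D22Rik, taken as the Feimin gene from general knowledge, had 3.52 to 6.13 CPM in the 6 MKO libraries and 21.6 to 29.9 CPM in the 6 WT libraries. It was lower in MKO in the exercised state by edgeR (log2 fold change -2.64 ± 0.18, adjusted p = 0.000114) and in the sedentary state (-2.20 ± 0.18, adjusted p = 0.000589). Genes of fast muscle fibres summed to between 110195 and 162631 CPM. Sedentary MKO replicate 1 stood apart for the genes described here, and the medians of these genes and of the other myelin genes in its comparisons are given with and without it. Sedentary MKO replicate 3 stood apart for slow muscle fibre genes, whose summed level was 95.8 CPM there and 533 to 1662 CPM in the others. On the first principal component of all genes tested (32.5% of the variance), exercised MKO replicates 1 and 4 lay at 12.35 and 12.36 and replicate 2 at 28.44, against 33.01 to 39.55 in exercised WT and -30.5 to -21.11 in the sedentary libraries. Nothing in the labels says whether the libraries of a group came from separate animals, so the p-values speak only of the spread among these samples, which may be technical.

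The promoters of 4 of the genes are shown because the genes varied together between libraries and because Sox10, one of them, encodes a factor that binds DNA. RefSeq windows of 300 bases (250 before and 50 after the start, GRCm38.p6) were at hand for 5 of the 7 genes, and none was at hand for Mbp or Sox10. Each window was searched on both strands for the core of the SOX site (ACAAAG), an EGR site (GCGNGGGCG) and a TATA box (TATAAA). Overlapping matches were allowed, and none occurred in the windows of these 5 genes. Capitals mark the SOX core. The most upstream of 3 Mag windows lies at chr7:30914873-30915172 on the minus strand and the Cnp window at chr11:100574689-100574988 on the plus strand. The Prx window lies at chr7:27499074-27499373 and the most upstream of 4 Pmp22 windows at chr11:63128732-63129031, both on the plus strand.
Mag: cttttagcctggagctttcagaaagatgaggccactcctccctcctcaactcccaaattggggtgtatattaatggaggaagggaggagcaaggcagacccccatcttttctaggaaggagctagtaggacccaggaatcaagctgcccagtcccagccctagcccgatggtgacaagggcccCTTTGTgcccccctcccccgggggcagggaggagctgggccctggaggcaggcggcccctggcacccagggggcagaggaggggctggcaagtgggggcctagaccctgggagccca
Cnp: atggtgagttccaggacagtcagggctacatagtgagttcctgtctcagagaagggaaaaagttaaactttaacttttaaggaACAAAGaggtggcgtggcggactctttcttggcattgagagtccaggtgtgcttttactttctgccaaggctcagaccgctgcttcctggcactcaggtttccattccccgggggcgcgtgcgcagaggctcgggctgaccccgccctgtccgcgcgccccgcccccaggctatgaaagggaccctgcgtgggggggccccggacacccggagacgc
Prx: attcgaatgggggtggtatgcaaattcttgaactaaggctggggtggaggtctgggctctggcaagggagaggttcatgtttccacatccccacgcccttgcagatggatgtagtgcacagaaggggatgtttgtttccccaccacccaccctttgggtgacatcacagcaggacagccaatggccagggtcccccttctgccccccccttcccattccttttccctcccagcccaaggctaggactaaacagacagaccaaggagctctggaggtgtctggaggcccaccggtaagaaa
Pmp22: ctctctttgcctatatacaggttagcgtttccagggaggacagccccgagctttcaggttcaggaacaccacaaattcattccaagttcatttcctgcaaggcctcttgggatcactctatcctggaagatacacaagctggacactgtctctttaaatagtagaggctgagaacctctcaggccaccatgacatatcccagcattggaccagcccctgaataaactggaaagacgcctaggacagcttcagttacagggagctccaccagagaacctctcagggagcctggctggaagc
The SOX core was present once in the Mag window shown, 67 to 62 bases before the start on the opposite strand (CTTTGT), and once in the Cnp window, 167 to 162 bases before the start (ACAAAG). It was absent from the windows of Prx and S100b and from all 4 windows of Pmp22. Across all 32851 RefSeq windows of this length, 18.7% held the SOX core, 5.55% the EGR site and 13.6% the TATA box, and no window of the 5 genes held an EGR site or a TATA box. These matches describe the letters of the windows and are not evidence of binding.

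Among the structural genes of myelin, Pmp22 (chromosome 11, 63128982 to 63159547, plus strand; GENCODE M21) encodes a membrane protein of compact peripheral myelin and is also made by fibroblasts. Pmp22 was at 79.1, 32.4 and 65.2 CPM in exercised MKO replicates 1, 2 and 4 and at 68.9, 70.3 and 38.1 CPM in exercised WT replicates 3, 4 and 5. It was at 94.1, 28.9 and 33.6 CPM in sedentary MKO replicates 1, 2 and 3 and at 38.4, 29.9 and 44.9 CPM in sedentary WT replicates 1, 3 and 4. The replicates are named in this order throughout. For Pmp22, sedentary MKO held both the highest and the lowest of the 12 values, and the ranges of all 4 groups overlapped. The group means were 58.9 ± 24.0 CPM in exercised MKO, 59.1 ± 18.2 in exercised WT, 52.2 ± 36.4 in sedentary MKO and 37.7 ± 7.55 in sedentary WT (SD, n = 3 each). Scaled to exon length, Pmp22 was the most abundant of the 7 genes at a mean level of 22.1 CPM per kb over the 12 libraries.

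Mbp (chromosome 18, 82475146 to 82585637, plus strand) encodes the basic protein that holds the inner faces of the myelin membrane together. Mbp was at 55.5, 8.30 and 41.8 CPM in exercised MKO and at 29.7, 36.2 and 14.0 CPM in exercised WT. It was at 63.0, 18.2 and 19.2 CPM in sedentary MKO and at 18.7, 11.9 and 35.1 CPM in sedentary WT. Mbp had the widest span of the 7 genes: its highest library, sedentary MKO replicate 1, was 7.60 times its lowest, exercised MKO replicate 2. Its mean level was 3.46 CPM per kb.

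Prx (chromosome 7, 27499324 to 27520214, plus strand) encodes periaxin, a scaffold that links the outer myelin membrane of Schwann cells to the surrounding matrix and is a defining gene of peripheral rather than central myelin. Prx was at 15.5, 3.48 and 11.6 CPM in exercised MKO and at 9.91, 10.6 and 4.20 CPM in exercised WT. It was at 19.5, 5.35 and 4.29 CPM in sedentary MKO and at 5.50, 3.91 and 10.2 CPM in sedentary WT. The order of the libraries was close to that of Mbp, with replicates 1 and 4 of exercised MKO high and replicate 2 low. An antisense gene, Gm15541, shares 300 exonic bases with Prx but had only 19 counts in all 12 libraries. The labels do not state whether counting used the strand.

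Mag (chromosome 7, 30899176 to 30914873, minus strand) encodes the adhesion molecule of the innermost myelin wrap that faces the axon. It was the least abundant of the 7 genes, at 0.176 CPM per kb and 3 to 23 counts per library. Mag was at 1.10, 0.445 and 0.862 CPM in exercised MKO and at 0.283, 1.18 and 0.221 CPM in exercised WT. It was at 1.53, 0.668 and 0.242 CPM in sedentary MKO and at 0.550, 0.539 and 0.960 CPM in sedentary WT. Exercised WT replicate 3 was among the 6 highest libraries for the other 6 genes but had 4 counts of Mag, so its place rests on few reads.

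Cnp (chromosome 11, 100574904 to 100591729, plus strand) encodes a cyclic nucleotide phosphodiesterase of the cytoplasmic channels of myelin and is also expressed at low levels outside glia. Cnp was at 11.8, 6.82 and 11.9 CPM in exercised MKO and at 9.41, 10.9 and 6.27 CPM in exercised WT. It was at 15.2, 8.42 and 5.69 CPM in sedentary MKO and at 9.0035, 6.20 and 9.88 CPM in sedentary WT. Its span was the narrowest of the 7 genes, 2.67 times from the lowest to the highest library. Cnp shares 154 exonic bases with Dnajc7 on the opposite strand, which had 8749 counts in all, so some of the reads counted for Cnp are uncertain if counting ignored the strand.

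Of the genes that mark the Schwann lineage rather than the sheath, Sox10 (chromosome 15, 79154908 to 79165240, minus strand) had 17 to 78 counts per library. Sox10 was at 3.36, 1.63 and 3.09 CPM in exercised MKO and at 2.27, 2.51 and 1.62 CPM in exercised WT. It was at 5.20, 1.47 and 1.03 CPM in sedentary MKO and at 1.65, 1.55 and 2.74 CPM in sedentary WT. Sedentary MKO replicate 1 was the highest and sedentary MKO replicate 3 the lowest of the 12 libraries, 5.05 times apart.

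S100b (chromosome 10, 76253853 to 76261159, plus strand) encodes a calcium-binding protein used as a marker of Schwann cells, which adipocytes also make. S100b was at 2.67, 0.593 and 1.58 CPM in exercised MKO and at 1.70, 1.26 and 0.664 CPM in exercised WT. It was at 2.40, 0.802 and 1.09 CPM in sedentary MKO and at 0.619, 1.01 and 1.78 CPM in sedentary WT. S100b was the only member of the 7 whose highest library was exercised MKO replicate 1 and not sedentary MKO replicate 1. Per exon length the mean levels were 0.908 CPM per kb for S100b, 0.768 for Sox10, 1.55 for Prx and 2.55 for Cnp.

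**Figure D1:**
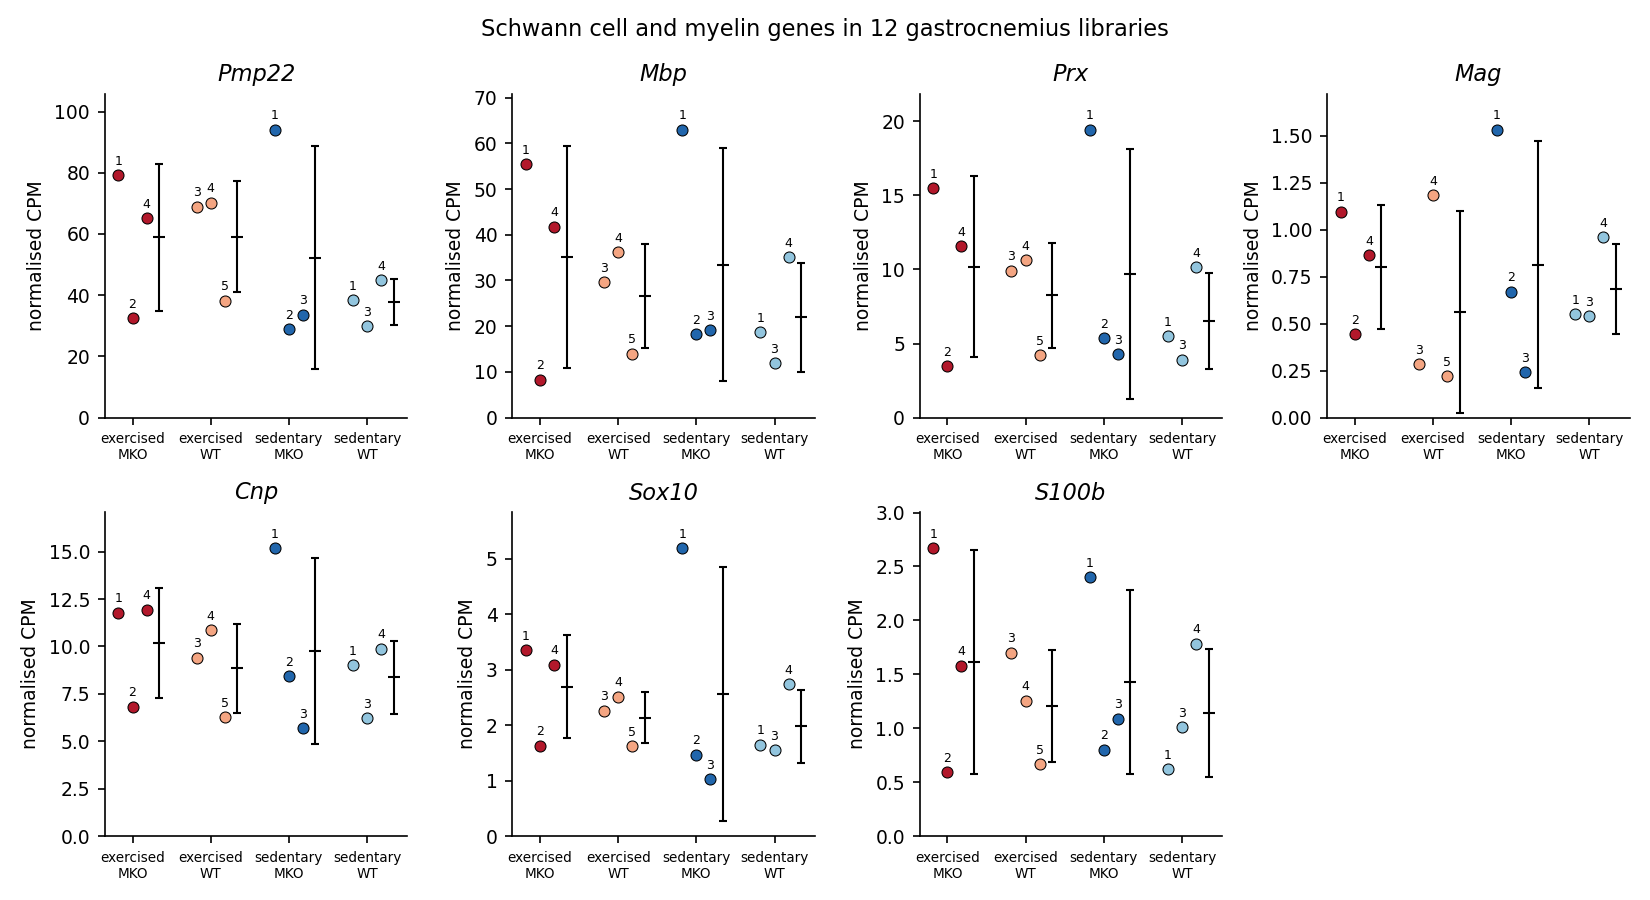
Level of each of the 7 genes in every library, in normalised CPM (vertical axis, from 0), by group. Points are libraries marked with their replicate number, and the bar beside them is the mean ± SD of 3. In each panel sedentary MKO replicate 1 and exercised MKO replicate 1 lie high, exercised MKO replicate 2 and exercised WT replicate 5 lie at the bottom of their groups, and the groups overlap.

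The first comparison asked whether loss of cellular Feimin went with another level of these genes in resting muscle. No member passed in sedentary MKO against sedentary WT (0 of 7 by edgeR at a Benjamini-Hochberg adjusted p under 0.05, beside 0.0069% of all genes, 1 of 14486). No member had an unadjusted p under 0.05 in this edgeR fit, and DESeq2 and limma-voom also called 0 of 7. The values were positive for 7 of 7, from 0.22 ± 0.35 for Cnp to 0.61 ± 0.67 for Mbp, with adjusted p = 1 for each. Pmp22 had 0.47 ± 0.44, Prx 0.57 ± 0.64, Sox10 0.36 ± 0.52, S100b 0.32 ± 0.57 and Mag 0.23 ± 0.66. The members' median was 0.36, against 0.00195 over all genes tested. The 95% intervals were wide, from -0.85 to 2.07 for Mbp and from -0.53 to 0.97 for Cnp, so changes of either sign were within them. Without sedentary MKO replicate 1 the median turned to -0.27 and all 7 values became negative, and it lay between 0.24 and 0.69 when any other library of these groups was left out.

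In exercised muscle the same comparison gave 0 of 7 members (edgeR, adjusted p under 0.05), beside 0.0345% of all genes, 5 of 14486 (0.0276% lower). DESeq2 and limma-voom called 0 of 7 as well, and no unadjusted p was under 0.05 with any of the 3 tools. Mag had 0.52 ± 0.70, S100b 0.43 ± 0.57, Mbp 0.40 ± 0.66, Sox10 0.34 ± 0.52, Prx 0.31 ± 0.63 and Cnp 0.20 ± 0.35. The value of Mag was 1.63 without exercised WT replicate 4 and 0.15 without replicate 5, and that of Cnp was 0.0060 without exercised WT replicate 5. Pmp22, the most abundant, had -0.0041 ± 0.44, with an interval of -0.96 to 0.96. The members' median was 0.34, against 0.0075 over all genes, and the lowest adjusted p was 0.735 (S100b, edgeR). Without exercised MKO replicate 1 the median was -0.088, without exercised WT replicate 5 it was 0.096, and without exercised MKO replicate 2 it was 0.71. Exercised MKO replicates 1 and 4, high for these genes, were also those nearest to the sedentary libraries on the first principal component, and the part of this in the result was not tested.

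Running itself altered many genes of the muscle. In WT, 8.24% of all genes passed in exercised against sedentary libraries (1193 of 14486, 4.14% higher and 4.1% lower), but 0 of the 7 genes did by edgeR, DESeq2 or limma-voom, and 0 had an unadjusted p under 0.05. Pmp22 had the largest value, 0.65 ± 0.44 (95% interval -0.32 to 1.62, adjusted p = 0.462, edgeR): 2 of 3 exercised WT libraries lay above every sedentary WT library, while exercised WT replicate 5 lay among them. Prx had 0.34 ± 0.65, Mbp 0.28 ± 0.67, Sox10 0.11 ± 0.54, S100b 0.088 ± 0.59, Cnp 0.082 ± 0.35 and Mag -0.28 ± 0.71. The members' median was 0.11, against -0.0069 over all genes. Leaving out replicate 3 of sedentary WT gave -0.016, and leaving out replicate 4 gave 0.57.

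In MKO, 4.05% of all genes passed in exercised against sedentary libraries (586 of 14486, 2.29% higher and 1.75% lower), and again 0 of the 7 by edgeR, DESeq2 or limma-voom, with 0 at an unadjusted p under 0.05. S100b had 0.19 ± 0.55, Pmp22 0.18 ± 0.44, Sox10 0.087 ± 0.50, Prx 0.080 ± 0.62, Mbp 0.075 ± 0.66, Cnp 0.066 ± 0.34 and Mag 0.0060 ± 0.64. The median was 0.080 with the scaling used and -0.035 with total counts alone, which moved the median of all genes in this comparison by -0.15. It was 0.91 without sedentary MKO replicate 1, where 2 of 7 genes had an unadjusted p under 0.05 (edgeR) and 0 passed. The share of all genes under 0.05 in that fit is not given here, and with all libraries it was 2189 of 14486. The median was negative, between -0.29 and -0.021, without sedentary MKO replicate 2 or 3 or exercised MKO replicate 1 or 4. The exercise comparisons share no libraries with each other, but each shares its groups with the genotype comparisons.

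The difference between the exercise responses (MKO response minus WT response) passed for 0 of 7 genes and for 0% of all 14486 by edgeR, with 0 of the 7 and 534 of all genes at an unadjusted p under 0.05. DESeq2 passed 3 and limma-voom 4 of all genes, and neither passed any of the 7. The values ran from -0.47 ± 0.62 for Pmp22 to 0.29 ± 0.96 for Mag, with edgeR adjusted p of at least 0.983. For Pmp22 the 95% interval was -1.84 to 0.89. The members' median was -0.021, against 0.0085 over all genes. It was 0.69 without sedentary MKO replicate 1 and -0.47 without exercised MKO replicate 1.

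**Figure D2:**
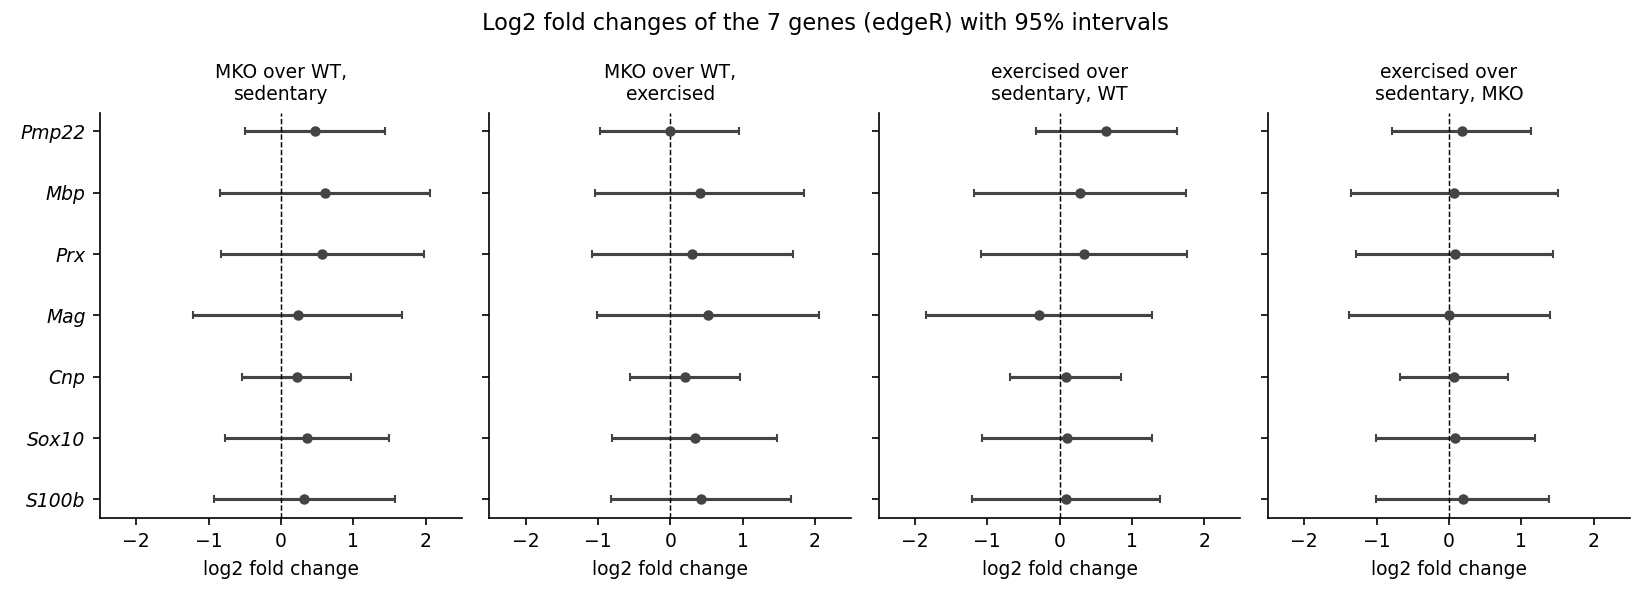
Log2 fold changes of the 7 genes (horizontal axis) in 4 comparisons, 1 panel each, with points for the edgeR estimate and bars for the 95% interval. Every interval contains 0, and those of Cnp are the narrowest and those of Mbp, Prx and Mag the widest.

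What set these genes apart from most others was their spread between libraries of the same group. The biological coefficient of variation, the fitted replicate spread of edgeR, was 55.0% for Mbp, 52.8% for Prx, 50.4% for Mag, 44.7% for S100b, 41.4% for Sox10, 37.3% for Pmp22 and 28.9% for Cnp. Over all genes tested its median was 11.1%, and between 93.0% (Cnp) and 97.8% (Mbp) of them had a lower value than the member.

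The spread was shared. Sedentary MKO replicate 1 was the highest of all 12 libraries for 6 of 7 genes and the highest of its group for 7 of 7. Sedentary WT replicate 4 was the highest of its group for 7 of 7, and exercised MKO replicate 1 and exercised WT replicate 4 were each the highest of theirs for 6 of 7. Exercised MKO replicate 2 and exercised WT replicate 5 were the lowest of their groups for 7 of 7. The summed level of the 7 genes was 169, 53.6 and 136 CPM in exercised MKO and 122, 133 and 65.1 CPM in exercised WT. It was 201, 63.8 and 65.1 CPM in sedentary MKO and 74.4, 55.0 and 106 CPM in sedentary WT. The ranges of the 4 groups overlapped, and the highest sums were those of sedentary MKO replicate 1 and exercised MKO replicates 1 and 4.

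With the group means removed, the log2 levels of every pair of the 7 genes were positively correlated over the 12 libraries (21 pairs). Pearson's r ran from 0.61 for S100b with Mag to 0.98 for Mbp with Prx, and Spearman's rho from 0.67 to 0.97. By an exact permutation of libraries within groups (two-sided, 1296 arrangements, smallest possible p = 0.000772), the Benjamini-Hochberg adjusted p of r was under 0.05 for 20 of 21 pairs. The exception was S100b with Mag, at 0.0664 by the same exact permutation test, and its adjusted p of rho was 0.0494. The permutation was run only on pairs of the 7 genes, so the share of passing pairs among other genes is not known. Without the 2 libraries farthest from the median of the first gene, r ran from 0.55 to 0.98. The labels give no batch within which to repeat this, and depth was nearly equal between libraries.

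**Figure D3:**
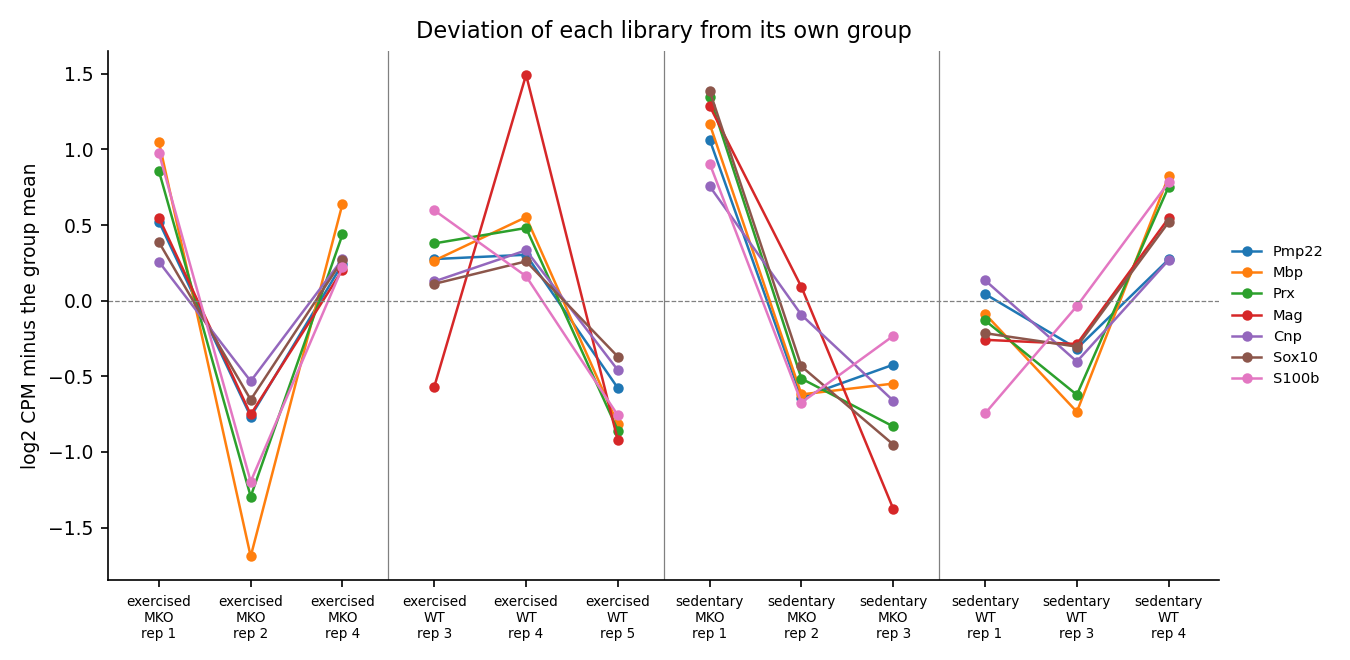
Deviation of each library from its own group's mean (log2 CPM, vertical axis) for the 7 genes, with groups divided by vertical lines. The lines run together: up at replicate 1 and down at replicate 2 of exercised MKO, down at replicate 5 of exercised WT, up at replicate 1 of sedentary MKO and up at replicate 4 of sedentary WT.

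The genes whose pattern was most like the mean pattern of the 7, among 13047 other genes with a mean of at least 1 CPM, were mostly genes of myelin. Likeness is Pearson's r over the 12 libraries with group means removed, given as a description since the libraries are shared. Among the 10 most alike were Aatk, a kinase gene of nervous tissue (0.983), Pllp, plasmolipin, a myelin membrane protein (0.975), Mal, a proteolipid of myelin (0.975), and Cldn19, the claudin of Schwann cell tight junctions (0.973). They were followed by Fa2h, which hydroxylates the fatty acids of myelin lipids (0.967), Cadm4, an adhesion molecule of the myelinated internode (0.966), Kif1a, a kinesin motor (0.955), Plekha4 (0.954) and Gas2l3 (0.952). Of the 10 genes 6 were in the lists of nerve genes used here.

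Beside the 7, 20 further genes of myelin and its nodes were counted, of which 16 passed the filter on low counts. None passed in any of the 4 comparisons or in the difference between responses, and none had an unadjusted p under 0.05 there (edgeR, 0 of 16 each). In sedentary MKO against sedentary WT, 12 of 16 values were positive, with a median of 0.59, which turned to -0.42 without sedentary MKO replicate 1. In exercised MKO against exercised WT, 12 of 16 were positive with a median of 0.24, and the median was -0.11 without exercised MKO replicate 1. After the run the median was 0.43 in WT, and 0.24 to 0.73 with a library left out. In MKO it was 0.016 after the run, 0.98 without sedentary MKO replicate 1 and -0.27 without sedentary MKO replicate 2, and -0.11 with total counts alone. For the difference between responses the median was -0.36, and 0.64 without sedentary MKO replicate 1. Sedentary MKO replicate 1 was the highest library for 16 of the 20. Among the most abundant were Drp2, a partner of periaxin in the outer sheath, Mal and Cadm4, at mean levels of 5.68, 4.18 and 3.72 CPM. Their median likeness to the pattern of the 7 was r = 0.88 with 13 of 16 above 0.8, against a median of 0.012 over all genes tested, of which 91 were above 0.8. The 3 others, singled out after their values were seen, were Gjb1, the connexin of non-compact myelin (0.62), Lgi4, a secreted Schwann cell protein (0.37), and Prima1, the membrane anchor of acetylcholinesterase (-0.31). Lgi4 was highest in sedentary MKO replicate 1, at 3.60 CPM, and was at 0 in 1 library, exercised MKO replicate 4. The part of that library in its r was not tested.

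Regulators of the lineage did not share the pattern to the same degree. Of 14 listed, 11 passed the filter and their median r was 0.37. Egr2, the transcription factor that drives myelination, reached 0.87, while Foxd3 (0.78) and Pou3f1 (0.77), transcription factors of earlier Schwann stages, came next; these 3 were singled out after their values were seen. The 4 most abundant, the Hippo pathway effectors Yap1 and Wwtr1, the repressor Zeb2 and the Egr co-repressor Nab1, are expressed in many cell types. Yap1 stayed within 26.6 to 31.1 CPM over the 12 libraries. Nrg1, the ligand that axons present to Schwann cells, had 0 counts in all 12 libraries. After the run in WT, 3 of the 11 regulators had an unadjusted p under 0.05 (edgeR), beside 3080 of all 14486 genes, and 1 passed. In each of the other comparisons at most 1 had such a p and 0 passed.

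The sole gene of the nerve lists to pass in any comparison was Nab2, a co-repressor of the Egr factors that is expressed in many cell types. It was at 5.31, 3.92 and 3.54 CPM in exercised WT and at 1.99, 2.70 and 2.47 CPM in sedentary WT. Nab2 rose after the run in WT (log2 fold change 0.83 ± 0.22, edgeR adjusted p = 0.0360; 4.14% of all genes passed as higher in this comparison). In MKO it was at 4.79, 5.26 and 5.25 CPM in exercised and at 4.06, 2.27 and 3.33 CPM in sedentary libraries, a log2 fold change of 0.66 ± 0.21 that did not pass (edgeR adjusted p = 0.115). The difference between these responses was -0.17 ± 0.30 (edgeR adjusted p = 0.983). The WT call was lost with total counts alone (adjusted p = 0.0705), without a filter (0.0543) and on leaving out any of sedentary WT replicates 1, 3 and 4 or exercised WT replicates 3 and 4 (0.0596 to 0.141). Its likeness to the pattern of the 7 was r = 0.37.

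Of 10 listed genes of Schwann cells without myelin, 5 passed the filter, and 0 passed the test in any comparison (edgeR), with at most 2 at an unadjusted p under 0.05. Those 2 were in exercised MKO against exercised WT, where 2319 of all 14486 genes had such a p. The most abundant were Ncam1, an adhesion molecule that muscle also makes, Scn7a, a sodium channel gene of glia, L1cam, an adhesion molecule of unmyelinated fibres, and Cdh19, a Schwann lineage cadherin. Ncam1 was at 5.69, 4.22 and 9.56 CPM in exercised MKO and at 3.40, 2.95 and 2.80 CPM in exercised WT (log2 fold change 1.09 ± 0.27, edgeR adjusted p = 0.203). Exercised MKO replicate 4 was the highest of the 12 libraries for Ncam1, whereas for the 7 genes that place was held by replicate 1 of sedentary or exercised MKO. The list's median r with the pattern of the 7 was 0.49, from 0.12 for Ncam1 to 0.65 for Ngfr, a neurotrophin receptor named after its value was seen. Exercised MKO replicate 4 also stood apart for neuromuscular junction genes, whose summed level was 80.9 CPM there and 37.8 to 57.5 CPM in the others. The part of this in the Ncam1 values was not tested. Fabp7 was at 0 counts in all libraries.

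Axons leave little messenger RNA in muscle because their cell bodies lie in the spinal cord and ganglia. Of 9 axon and neuron genes, Nefl, Nefh and Chat had 0 counts in all 12 libraries, and 2 passed the filter on low counts, Uchl1, a neuronal ubiquitin hydrolase, and Stmn2, a regulator of axonal microtubules. Uchl1 was at 3.36, 3.11 and 6.83 CPM in exercised MKO and at 2.27, 2.51 and 0.885 CPM in exercised WT (log2 fold change 1.23 ± 0.39, edgeR adjusted p = 0.22), highest again in exercised MKO replicate 4. Stmn2 was at 1.92, 1.19 and 1.58 CPM in exercised MKO and at 3.80, 3.07 and 1.94 CPM in sedentary MKO, with a difference of -0.90 ± 0.27 (edgeR adjusted p = 0.108). The mean levels of Tubb3 and Prph were 0.335 and 0.0797 CPM. The r of Stmn2 and Uchl1 with the pattern of the 7 was 0.43 and 0.35.

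The perineurium, the cell layer that wraps nerve bundles, was represented by Slc2a1, a glucose transporter, Cldn1, a claudin, and Itgb4, an integrin, at mean levels of 6.36, 1.02 and 4.39 CPM. None passed in any comparison (edgeR, 0 of 3, with at most 1 at an unadjusted p under 0.05). That count of 1 was found after the run in WT and in MKO, beside 3080 and 2189 of all 14486 genes. Itgb4 and Slc2a1 were highest in sedentary MKO replicate 1, at 8.53 and 8.19 CPM. The r with the pattern of the 7 was 0.70 for Cldn1, 0.65 for Itgb4 and 0.58 for Slc2a1. Single genes of other cells reached similar values: the highest was 0.59 among macrophage genes and 0.55 among neuromuscular junction genes.

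Markers of other cells that use some of the same genes were checked. The oligodendrocyte genes Mog, Mobp, Olig1, Olig2 and Opalin, which mark the glia of central myelin, had 0 counts in all 12 libraries (5 of 5), where 3 counts would have been 0.181 to 0.222 CPM. Of 5 melanocyte genes, whose lineage also uses Sox10, Tyr, Mlana and Tyrp1 had 0 counts throughout, and the summed level never exceeded 0.533 CPM. Adipocyte genes, relevant to S100b, had a median r of -0.036 with the pattern of the 7. Their summed level was 93.8 to 120 CPM in exercised MKO, 99.9 to 136 in exercised WT, 131 to 174 in sedentary MKO and 130 to 205 in sedentary WT. Most of this sum was Fabp4, at a mean of 125 CPM, against 7.57 for Cfd, 1.57 for Adipoq and 1.17 for Cidec. Adipoq ranged from 0.144 to 3.43 CPM and Cidec from 0 to 2.80 CPM, which the sum hardly shows. Fibroblast genes, relevant to Pmp22, had a median r of 0.19. After the run all 6 had negative values in WT and in MKO. Of these, 3 passed as lower in WT and 3 in MKO (edgeR), beside 4.1% and 1.75% of all genes. Fibroblast sums were 243 to 368 CPM in exercised MKO, 235 to 265 in exercised WT, 543 to 570 in sedentary MKO and 410 to 517 in sedentary WT.

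Among the remaining lists the median r with the pattern of the 7 was 0.33 for slow fibre genes and 0.27 for macrophage genes. It was 0.055 for fast fibre genes, 0.037 for neuromuscular junction genes, -0.00022 for endothelial genes, -0.029 for mural cells, -0.15 for tenocytes, -0.16 for satellite cells and -0.19 for red blood cells. Macrophage genes had positive values in MKO against WT for 6 of 6 in each state, with 0 passing (edgeR). An unadjusted p under 0.05 was found for 6 of 6 in exercised muscle, beside 2319 of all 14486 genes, and for 4 of 6 in sedentary muscle, beside 545 of all 14486. Their summed level was 31.6 to 69.8 CPM in exercised MKO and 21.4 to 28.4 in exercised WT. It was 54.3 to 81.2 CPM in sedentary MKO and 38.6 to 47.5 in sedentary WT. Each macrophage gene had counts, but Adgre1 was at 0 in 1 library, exercised WT replicate 3. The part of these cells in the values of the 7 genes was not tested.

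**Figure D4:**
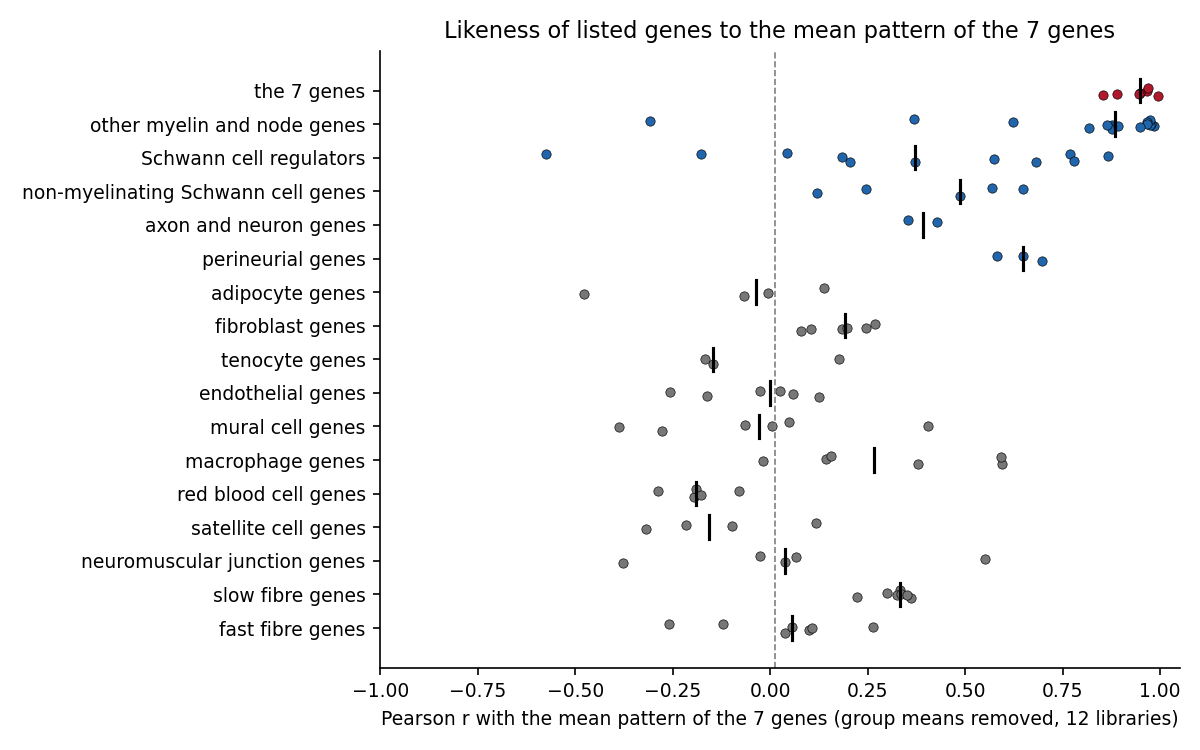
Pearson's r (horizontal axis) of each tested gene of each list with the mean pattern of the 7 genes over the 12 libraries, group means removed. Dots are genes, bars list medians and the dashed line the median of all genes tested, 0.012. The 7 genes, which make up the pattern, lie at 0.853 or higher, 13 of 16 other myelin genes lie above 0.8, and the medians of muscle, vessel and blood cell lists lie between -0.19 and 0.33.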

How the data were processed

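Total RNA of 12 gastrocnemius samples was extracted (GeneMark kit) and sequenced at BGI (DNBSEQ), per the labels' protocols. The authors deposited raw counts per Ensembl gene. Tools listed in the submitters' processing notes are HISAT2 2.2.1, StringTie 2.1.4, SAMtools 1.9, DESeq2 1.40.2, FastQC 0.12.1 and R 4.3, with mm10 and GRCm38.p6 as builds. Which of them counted, and with what strand setting, is not given in the sources. A misspelt column name was taken as exercised MKO replicate 4, the sole library left without a column. Symbols and positions came from GENCODE M21 (GRCm38.p6).

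edgeR 4.0.16 in R 4.3.3 fitted 1 quasi-likelihood model with 1 mean per group (8 residual degrees of freedom) after filterByExpr (minimum count 10, minimum total 15; 14486 genes) and TMM scaling (factors 0.928 to 1.15). The threshold was a Benjamini-Hochberg adjusted p of 0.05. Standard errors came from the F statistic, and intervals are 95%. Likeness used log2 CPM (prior count 2) with group means removed.

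From each nerve list, genes that passed and the 4 of highest mean CPM are named, plus the 10 genes most like the 7; other genes named were chosen after their values were seen. For 1 gene that this rule names, the values are not reported here. The 7 genes and the lists were chosen with earlier results of these data known. Alternatives were DESeq2 1.42.0, limma-voom (limma 3.58.1), no filter, 1 CPM in 3 libraries as filter, median-of-ratios factors, total counts alone, the compared groups alone, a replicate block and each library left out. The medians of the other nerve lists and the settings for Nab2 were added after the data were seen. The fit was tested on simulated data. No 2 libraries held the same counts. Plots used Python 3.11.15 and matplotlib 3.10.9.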

Additional observations from a re-analysis of the deposited data

How the results depend on the processing

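No member passed under any alternative run in any comparison. The depth limits Mag (3 to 23 counts per library) and S100b (8 to 39 counts) most, and the spread between libraries limits all 7. For each value given below that changed, the cause was not tested.

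Genes passing between sedentary MKO and WT numbered 3 with DESeq2, 3 with limma-voom, 2 with the compared groups alone, 0 with a replicate block and 1 to 3 with a library left out. Between exercised MKO and WT they numbered 95 with DESeq2, 2 without a filter, 2 with the block and 2 (without exercised MKO replicate 1 or exercised WT replicate 5) to 108 (without exercised MKO replicate 2). After the run they numbered 602 in WT and 361 in MKO with the block, and 808 to 943 in WT and 316 to 503 in MKO with a library left out. For the difference between responses they numbered 3 with DESeq2, 4 with limma-voom, 1 with total counts alone and 0 to 3 with a library left out.

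Log2 fold changes near 0 turned sign. In sedentary MKO against WT, limma-voom gave -0.083 for Mag. In exercised MKO against WT, total counts alone gave 0.038 for Pmp22. After the run in WT, total counts alone gave -0.0045 for S100b and -0.012 for Cnp. After the run in MKO, DESeq2 gave -0.0084 for Mag, limma-voom -0.057 for Mbp, and total counts alone -0.035 for Mbp, -0.033 for Prx, -0.041 for Sox10, -0.13 for Mag and -0.063 for Cnp. For the difference between responses limma-voom gave 0.26 for Sox10, -0.00014 for S100b and 0.073 for Cnp.

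Replicate numbers did not pair the libraries: the deviations of 10 same-numbered pairs correlated at -0.15 to 0.076, with 0 over 0.1. With the number as a replicate block, exercised MKO against WT gave -0.20 for Mbp, -0.34 for Prx, -0.053 for Sox10, -0.16 for Mag and -0.23 for Cnp. The block gave 0.23 for Mag after the run in WT. After the run in MKO it gave -0.41 for Mbp, -0.21 for Prx, -0.092 for Sox10, -0.44 for Mag and -0.12 for Cnp. For the difference between responses it gave -0.43 for S100b and -0.67 for Mag. The call of Nab2 in WT was lost with the block (0.92, edgeR adjusted p = 0.0933). In sedentary MKO against WT, 2 of 7 genes had an unadjusted p under 0.05 with the block (edgeR) and 0 passed. The share of all genes under 0.05 in that fit is not given here.

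With a library left out, sedentary MKO against WT ranged from -0.27 to 0.76 for Pmp22, -0.23 to 1.13 for Mbp, -0.44 to 1.04 for Prx, -0.67 to 0.74 for Sox10, -0.26 to 0.80 for S100b, -0.60 to 0.67 for Mag and -0.25 to 0.49 for Cnp, each lowest without sedentary MKO replicate 1. Exercised MKO against WT ranged from -0.28 to 0.28 for Pmp22, -0.088 to 0.86 for Mbp, -0.13 to 0.71 for Prx and -0.15 to 0.81 for S100b, each lowest without exercised MKO replicate 1. It kept its sign but ranged from 0.15 to 0.59 for Sox10, 0.15 to 1.63 for Mag and 0.0060 to 0.42 for Cnp. After the run in WT the range was 0.50 to 0.88 for Pmp22, 0.077 to 0.82 for Prx, -0.016 to 0.80 for Mbp, -0.043 to 0.42 for Sox10, -0.24 to 0.57 for S100b, -1.39 to 0.089 for Mag and -0.094 to 0.28 for Cnp. After the run in MKO it was -0.11 to 0.92 for Pmp22, -0.42 to 0.91 for Mbp, -0.36 to 1.08 for Prx, -0.29 to 1.115 for Sox10, -0.38 to 0.77 for S100b, -0.43 to 0.84 for Mag and -0.20 to 0.53 for Cnp, each highest without sedentary MKO replicate 1. The difference between responses ranged from -0.76 to 0.27 for Pmp22, -0.73 to 0.63 for Mbp, -0.74 to 0.74 for Prx, -0.41 to 1.01 for Sox10, -0.47 to 0.69 for S100b, -0.16 to 1.397 for Mag, -0.30 to 0.45 for Cnp and -0.37 to 0.025 for Nab2.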
